A study of Mus musculus with 30 samples.

Results

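The 39 genes described here carry out N-glycosylation, the attachment of a sugar tree to asparagine residues of secreted and membrane proteins. The list was drawn up by function and covers nucleotide sugar supply, dolichol-linked sugar donors, assembly of the lipid-linked oligosaccharide, its transfer to protein, trimming, and branch building in the Golgi. A gene was read by a probe set annotated to its symbol alone, and where several existed by the one with the highest mean of log2(intensity + 16). All 39 genes had such a probe set, of 18193 genes with one in all. All 39 were also among the 12183 genes tested, those with at least 3 of 30 arrays above the table's median intensity of 188. Alg6 was above that median on 24 arrays, Alg2 on 29 and each of the other members on all 30.

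In N-glycosylation a precursor is built on the lipid dolichol, first on the cytosolic face of the endoplasmic reticulum membrane and then on the lumenal face, from UDP-N-acetylglucosamine, GDP-mannose and dolichol-linked mannose and glucose. The oligosaccharyltransferase complex moves the finished tree onto nascent or completed chains, and glucosidases and mannosidases then trim it before Golgi enzymes add branches. Antibody heavy chains carry N-linked glycans, and a B cell that becomes a plasma cell enlarges its endoplasmic reticulum and secretes antibody in bulk.

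RNA came from mouse B cells enriched from spleen as resting mature cells of C57BL/6 background with B1-8i, an inserted rearranged antibody heavy chain gene. Mice were either Irf4-/- with an Irf4 gene that doxycycline (DOX) induces, called KO at every dose, or Irf4+/+, called WT. Irf4 encodes a transcription factor needed for plasma cell formation, and the comparisons ask how its loss and its graded restoration act as B cells respond to signals that promote plasma cells. KO cells were unstimulated at day 0, or cultured with CD40L, IL-2, IL-4 and IL-5 for 1 or 3 days at 0 (zero), 16 (low) or 100 (high) ng/mL DOX, and WT cells were taken unstimulated at day 0 and after 1 and 3 days of the same culture, with no DOX named in their labels. Each of these 10 groups has 3 arrays, each from an individual mouse per the series text, which places 1 of the 3 replicates at another time without naming it. The labels do not name the promoter that drives inducible Irf4, and no group is WT with DOX or KO without the inducible gene, so DOX itself and the Irf4 it induces cannot be told apart.

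The 30 arrays had median intensities between 171 and 199.7 and correlated at 0.9786 or more within groups. All 3 WT arrays of day 1 had the lowest medians (171 to 174.2), and every other array had 176.7 or more. An Irf4 probe set that follows DOX went against 2 labels at day 1: the array labelled zero DOX replicate 2 read 10.77 on the log2 scale, against 7.84 and 7.80 on its group's other arrays, and the one labelled low DOX replicate 2 read 7.69, against 11.17 and 10.89. Leaving out both arrays ended the call of 1 named member result, the difference between genotypes in the change of Uap1 over days 1 to 3 (adjusted p = 0.078 without them), and the counts without them stand beside those with them. The summed intensity of 8 B cell markers, among them Cd79a, Cd79b and Cd22, was 54548 to 91073 over all arrays. The top value was 1 array of KO zero DOX at day 3, where the other sums were 78848 and 81071. Cd79a in that group read 5695, 5916 and 15305. Of 9 plasma cell markers, a list that holds Irf4 itself, 8 were higher in high than in zero DOX at day 3, and their summed intensity was 20727 to 22256 in zero, 34975 to 45034 in low and 50419 to 57376 in high DOX, against 43028 to 44543 in WT at day 3. At day 0 these sums were 31204 to 38529 in WT and 17167 to 22650.5 in KO, against 21384 to 24315 in WT at day 1. Of this list, Jchain at day 0 read 7769 to 12335 in WT and 51 to 60 in KO, while Xbp1 overlapped (4577 to 5166 and 3760 to 4949). In this list and its sums Irf4 was read by another probe set, which does not follow DOX. Its mean log2 was 11.10 in zero and 11.19 in high DOX at day 3, and it read 5437 to 7004 in KO at day 0. In WT it read 8991 to 9532 at day 0, 3219 to 3445 at day 1 and 1733 to 1864 at day 3. The set that follows DOX read 134 to 253 over all WT arrays. By these sets Irf4 levels in DOX cultures and in WT cannot be set against each other. Of 11 myeloid markers tested, 11, 10 and 9 were higher in KO without DOX than in WT at days 0, 1 and 3, and their sums at day 3 were 8661 to 16149 in KO zero DOX and 2034 to 2436 in WT. At day 3, 5 of 5 NK cell and 3 of 5 T cell markers tested were also higher in KO zero DOX than in WT. RNA of the whole culture was measured, so fewer cells of a type and less RNA per cell cannot be told apart. By Xist and Y-linked transcripts, 14 arrays were male, all of them KO, and 16 female, including all WT arrays.

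The sequences below are the 250 bases before the start of 4 oligosaccharyltransferase genes. Of the members of that complex, these had the largest differences between high and zero DOX at day 3. They were taken from RefSeq, build GRCm38.p6, and run 5′ to 3′ on the gene's strand. Capitals mark CCAAT or its reverse complement ATTGG. Rpn2 lies at chr2:157278848-157279097 (plus strand), Rpn1 at chr6:88084223-88084472 (plus), Ddost at chr4:138304488-138304737 (plus) and Stt3a at chr9:36767623-36767872 (minus).
Rpn2: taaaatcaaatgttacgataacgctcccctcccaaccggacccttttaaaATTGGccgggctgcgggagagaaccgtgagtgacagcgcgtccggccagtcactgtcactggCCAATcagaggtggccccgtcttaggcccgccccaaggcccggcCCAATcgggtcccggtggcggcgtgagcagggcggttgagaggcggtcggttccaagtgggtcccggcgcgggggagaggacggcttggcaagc
Rpn1: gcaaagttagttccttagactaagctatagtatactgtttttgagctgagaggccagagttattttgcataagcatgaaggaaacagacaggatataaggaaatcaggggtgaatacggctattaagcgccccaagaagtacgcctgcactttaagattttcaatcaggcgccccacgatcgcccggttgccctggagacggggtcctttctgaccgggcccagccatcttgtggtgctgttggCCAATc
Ddost: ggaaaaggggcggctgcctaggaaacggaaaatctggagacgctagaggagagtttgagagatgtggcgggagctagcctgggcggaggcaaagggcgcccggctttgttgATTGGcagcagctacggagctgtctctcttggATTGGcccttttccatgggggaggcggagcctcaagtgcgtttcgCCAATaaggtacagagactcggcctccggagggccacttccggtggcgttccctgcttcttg
Stt3a: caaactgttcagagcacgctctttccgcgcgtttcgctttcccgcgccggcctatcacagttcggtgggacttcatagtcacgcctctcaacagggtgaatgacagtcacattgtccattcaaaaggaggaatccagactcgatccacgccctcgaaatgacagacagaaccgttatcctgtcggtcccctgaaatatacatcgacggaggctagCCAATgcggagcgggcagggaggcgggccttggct

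Only windows with at least 1 match to the motifs named below were eligible for printing. Rpn2 has 2 entries, of which only that with matches is shown, and the other held none. With that choice, each of these 4 windows holds CCAAT on 1 strand or the other. The 33 members with a promoter entry have 38 windows, of which 20 held it, from 18 genes. Of all 32851 windows of this length 33.8% did. The ER stress response element ERSE, which begins with CCAAT and was searched on both strands as were all motifs, was found in Alg12 and in 0.113% of windows. The UPRE core TGACGTG was found in Dpm2 and Mogs, against 1.65% of windows. Its inner letters ACGTG alone were found in 8 of the 38 member windows, from 8 genes, Dpm2 and Mogs included, against 16.6% of windows. The ERSE-II element (0.0304% of windows) and the ETS-IRF composite core (2.3%) were found in none of the 33. These are letter matches and not binding sites.

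**Figure D1:**
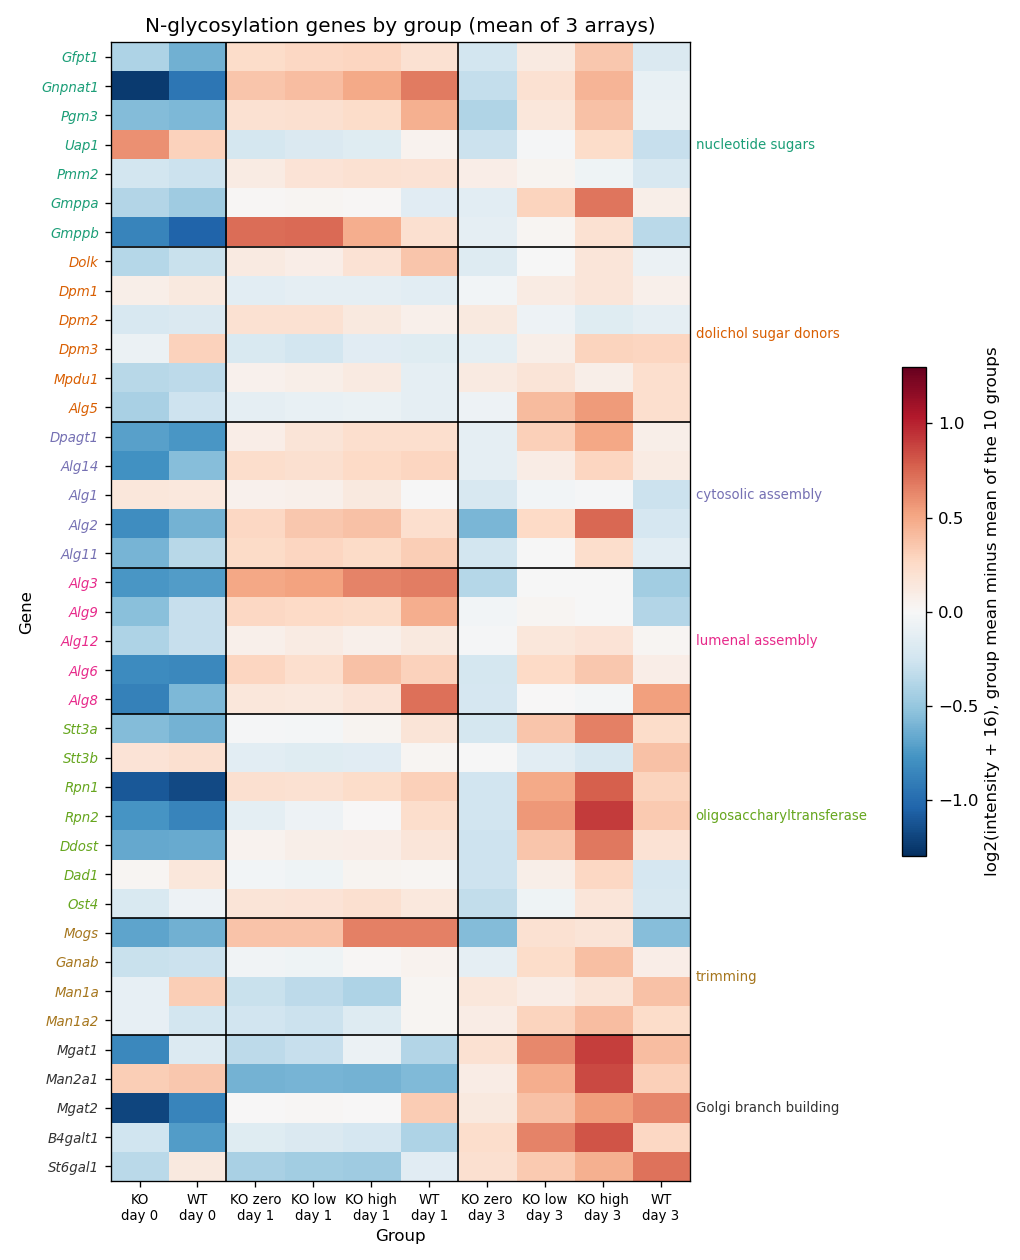
Mean level of each of the 39 genes (rows, grouped by role) in the 10 groups (columns, 3 arrays each), as log2(intensity + 16) minus the gene's mean over the groups. At day 3 the KO high DOX column is redder than the KO zero DOX column for most genes, and Stt3b, Dpm2, Pmm2 and Mpdu1 are the exceptions.

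In WT cells, most of the pathway was higher after 1 day of stimulation than at rest. Of 39 members 29 were higher and 7 lower at day 1 than at day 0, while of all tested genes 81.5% were called in either direction, 33.9% higher and 47.6% lower (limma, Benjamini-Hochberg adjusted p under 0.05). The members' median log2 difference was 0.47, against -0.15 over all genes tested. With each array centred on its median, which moves the all-gene median of this comparison by 0.16, the split was 29 higher and 2 lower. The largest difference was that of Gnpnat1 (1.61, SE 0.059, adjusted p = 1.69e-17), whose enzyme acetylates glucosamine phosphate on the way to UDP-N-acetylglucosamine.

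Between days 1 and 3 in WT the roles parted. Of all members 13 were higher and 17 lower at day 3 than at day 1, with 69.4% of all genes called (43.3% higher, 26.2% lower), and after centring, which moves the all-gene median by -0.13, 10 were higher and 20 lower. All 5 Golgi genes were higher at day 3 than at day 1 (median 0.78), while 6 of 7 nucleotide sugar genes and 4 of 5 cytosolic assembly genes were lower. Against day 0, 27 members were higher and 4 lower at day 3, with 65.3% of all genes called (33.4% higher, 31.9% lower), and the median of the members was 0.44 against -0.01 over all genes. In WT 8 of 9 plasma markers were higher at day 3 than at day 1, and 1 was lower (Irf4, by the set that does not follow DOX). Their summed intensity in WT was 31204 to 38529 at day 0, 21384 to 24315 at day 1 and 43028 to 44543 at day 3. The part of these markers in the members' differences was not tested.

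In KO cells without DOX most of the called members stood lower than in WT. At day 0, 3 members were higher and 11 lower in KO than in WT, with 31.5% of all genes called (13.1% higher, 18.4% lower). The median was -0.03 for the members and -0.05 for all genes, so as a set the members stood no lower than all genes. With only these groups in the fit 5 members in all were called, and calls over all genes fell from 3832 to 1332. Plasma marker sums at day 0 were 17167 to 22650.5 in KO and 31204 to 38529 in WT. At day 1, 5 were higher and 13 lower in KO zero DOX than in WT, with 49.6% of all genes called (33.9% higher, 15.7% lower). Medians there were -0.08 for the members and 0.07 for all genes. After centring, which moves the all-gene median by -0.14, 1 was higher and 28 lower, and without both day 1 arrays that go against their labels 3 were higher and 11 lower. At day 3, 21 were lower and 4 higher in KO zero DOX than in WT, with 34.9% of all genes called (19% higher, 15.8% lower). The median was -0.20 for the members and 0.00 for all genes. Plasma markers moved the same way (8 of 9 lower), and myeloid markers the other way (9 of 11 higher). The part of either in the members' differences was not tested.

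Between days 1 and 3 in KO zero DOX, 6 members were higher and 19 lower at day 3, with 52.6% of all genes called (25.9% higher, 26.7% lower), and the counts were the same without both arrays that go against their labels. The change over these days differed between KO zero DOX and WT in 14 members, 4 with a higher and 10 with a lower value in KO, with 29.2% of all genes called (9% higher, 20.2% lower). Without both arrays 12 members differed. After centring, which moves the all-gene median by 0.15, 7 were higher and none lower. After quantile normalization 2 were higher and 13 lower, so the calls of the 10 lower ones depend on which scaling is used.

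Most of the pathway was higher with DOX at day 3. High against zero DOX gave 31 members higher and 2 lower, with 48.6% of all genes called (24.4% higher, 24.2% lower), and a median of 0.48 for the members against 0.00 for all genes. Low against zero DOX gave 30 higher and 1 lower (35.8% of all genes called, 17.6% higher and 18.2% lower, median 0.27 against -0.03). High against low DOX gave 16 higher and none lower (12.8% of all genes called, 6.69% higher and 6.09% lower, median 0.17 against 0.02). That last count was 8 without high DOX replicate 1 and 10 without low DOX replicate 3. It was 7 after centring and 7 with only these groups in the fit. Over all genes the calls were 1557 in the main fit and 868, 983, 1422 and 695 in these settings, in that order. These comparisons share arrays with each other, so their counts are not independent. Array by array, 23 members had all 3 low DOX values above all zero DOX values and below all high DOX values, and none had the opposite order. Over all genes 7.86% rose and 8.78% fell in such steps. Over the same groups 8 of 9 plasma markers were higher and 9 of 11 myeloid, 5 of 5 NK cell, 3 of 5 T cell and 8 of 8 B cell markers lower in high than in zero DOX. The part of these in the members' differences was not tested.

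With high DOX most members stood above WT. At day 3, 28 members were higher and 3 lower in KO high DOX than in WT, with 41.1% of all genes called (22.1% higher, 19% lower), and the median was 0.37 for the members against 0.01 for all genes. Stt3b, Man1a and Mpdu1 were the 3 lower ones. At this time 7 of 9 plasma markers were also higher in KO high DOX than in WT, and their part was not tested.

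At day 1 DOX made little difference. Mogs alone of the 39 members passed in high against zero DOX, where 2.75% of all genes were called (1.26% higher, 1.49% lower). It passed also without both day 1 arrays that go against their labels. With replicate number as a block, which pairs the KO cultures, Mogs and Gmppb passed.

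**Figure D2:**
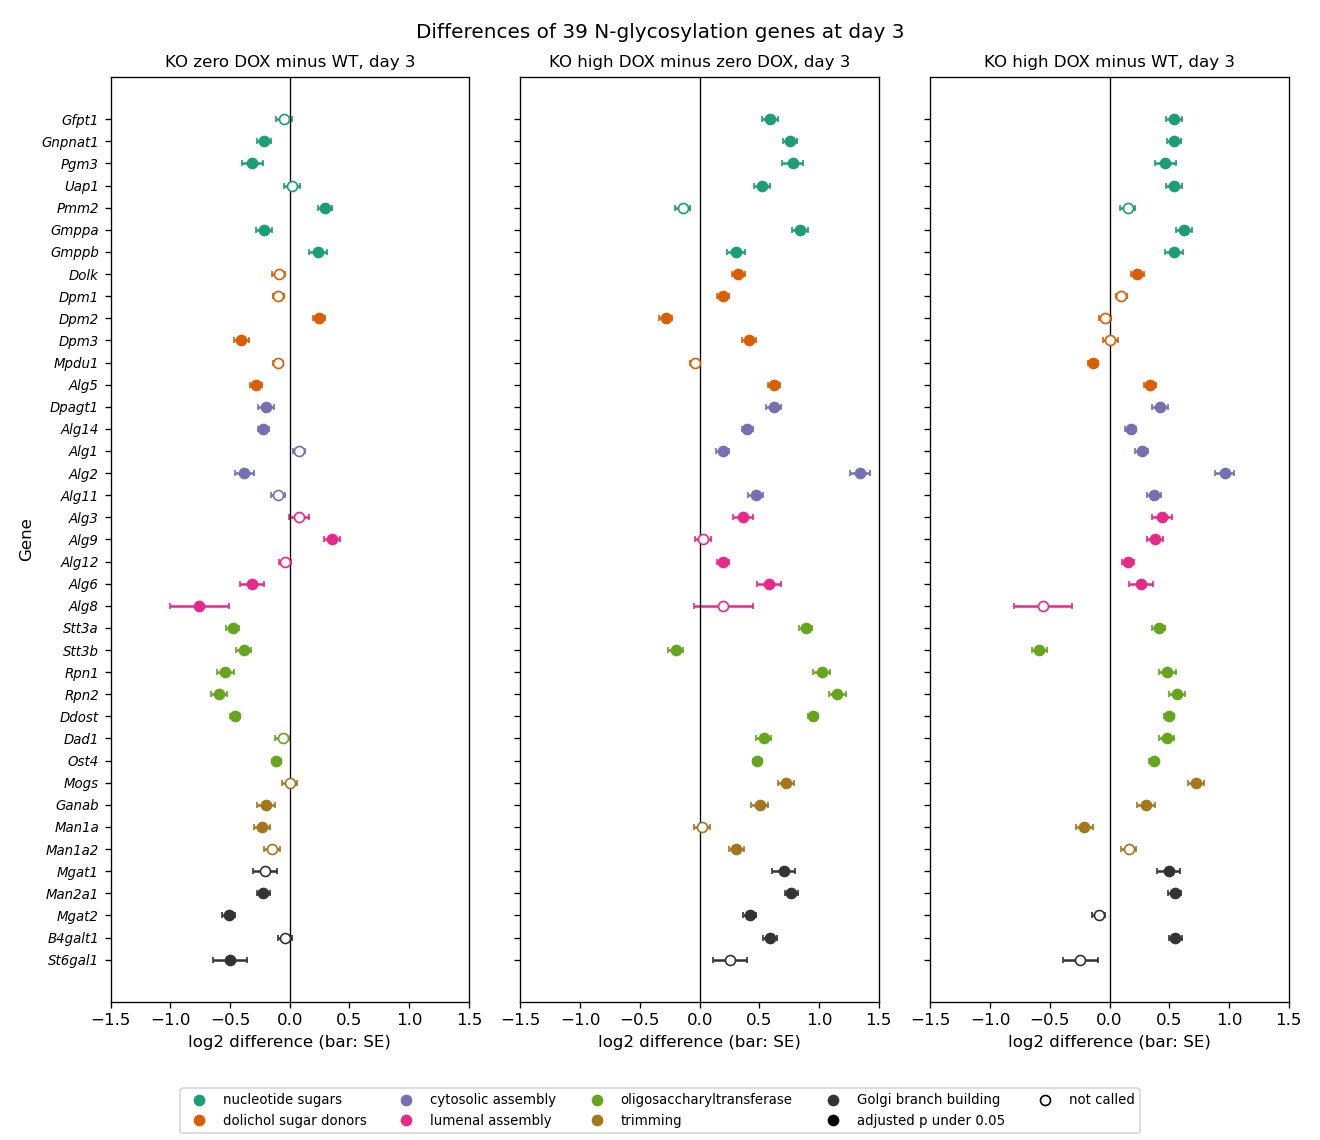
Log2 differences with standard errors for the 39 genes at day 3 in KO zero DOX against WT (left), KO high against zero DOX (middle) and KO high DOX against WT (right); filled points have adjusted p under 0.05. Most points lie left of 0 in the left panel and right of 0 in the other panels, with Stt3b to the left in all of them.

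The nucleotide sugar genes were higher in high than in zero DOX in 6 of 7 cases. Gfpt1, whose enzyme opens the hexosamine pathway, read 2544, 2379.8 and 2257 at day 3 in zero DOX, 3247, 3026 and 2868 in low DOX and 3668, 3639.8 and 3484 in high DOX, against 2464, 2343 and 2601 in WT. The 3 doses did not overlap, zero DOX overlapped WT, and all high DOX values lay above WT. KO high DOX against WT gave a log2 difference of 0.54, SE 0.066, adjusted p = 5.56e-07. Its difference between high and low DOX (0.24, SE 0.066, adjusted p = 0.017) was lost in 7 of the alternatives run, 4 of them leaving out 1 array.

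Gnpnat1 at day 3 read 1070.0, 1044 and 959.8 in zero DOX, 1494, 1479.7 and 1422 in low DOX and 1781, 1788 and 1645 in high DOX, against 1204, 1166 and 1202 in WT. Zero DOX lay below WT on every array, and low and high DOX lay above it, each in a step of its own (0.75, SE 0.059, adjusted p = 2.32e-10 for high against zero DOX). KO was below WT at day 0 too (-0.31, SE 0.059, adjusted p = 0.00035, or 0.0522 with only these groups in the fit). In WT the gene read 609.6, 691 and 675 at day 0, 2026, 2008 and 2069 at day 1 and 1204, 1166 and 1202 at day 3, so its peak was at day 1. The difference of day 3 from day 1 was -0.67, SE 0.059, adjusted p = 1.08e-09 in KO zero DOX and -0.76, SE 0.059, adjusted p = 6.71e-11 in WT.

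Pgm3, which converts the phosphate position of acetylglucosamine in the following step, read 362, 342 and 315 in zero DOX, 576, 484 and 449 in low DOX and 598, 606 and 577 in high DOX at day 3, against 439.8, 443 and 396 in WT. Values of the 3 doses did not overlap, and low DOX lay above WT on every array. The difference was 0.78, SE 0.088, adjusted p = 9.79e-08 for high and 0.54, SE 0.088, adjusted p = 4.58e-05 for low against zero DOX. The difference between high and low DOX was 0.24 with adjusted p = 0.0804, or 0.0254 with the replicate block.

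Uap1, which makes UDP-N-acetylglucosamine itself, read 2529, 2369.6 and 2114 in KO at day 0, against 1759, 1861 and 2076 in WT. All KO values lay above WT (0.30, SE 0.068, adjusted p = 0.00178), a call lost with the mean of its probe sets and with only these groups in the fit (adjusted p up to 0.0823). At day 3 it read 1247, 1228 and 1316 in zero DOX, 1544, 1566 and 1445 in low DOX and 1895, 1828 and 1740.5 in high DOX, against 1212, 1205 and 1320.2 in WT. Zero DOX overlapped WT, and high DOX exceeded it (0.54, SE 0.068, adjusted p = 7.3e-07). In WT day 3 lay below day 0 without overlap (log2 difference -0.60), whereas Gfpt1, Gnpnat1 and Pgm3 of the same route were each higher at day 3 than at day 0.

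GDP-mannose is made by a catalytic subunit, Gmppb, with a regulatory subunit, Gmppa, from mannose phosphate that Pmm2 supplies. Gmppa at day 3 read 739, 743 and 738 in zero DOX, 1061, 1010.4 and 931 in low DOX and 1395, 1413 and 1208 in high DOX, against 852, 865 and 864 in WT. The zero DOX values lay within a narrow span below WT, and each dose lay wholly above the one beneath it. The difference was 0.84, SE 0.066, adjusted p = 3.06e-10 for high against zero DOX and 0.41, SE 0.066, adjusted p = 0.000146 for high against low DOX. KO high DOX also lay above WT (0.63, SE 0.066, adjusted p = 6.36e-08).

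Gmppb behaved differently at day 1. It read 1997, 1997 and 1904 in KO zero DOX, 2079, 1956 and 1927 in low DOX and 1695, 1739 and 1514 in high DOX, against 1408, 1445 and 1255 in WT. KO zero DOX lay above WT on every array (0.52, SE 0.075, adjusted p = 9.23e-06), and it was the largest of the 5 members higher there. High DOX lay below zero DOX at day 1 by a log2 difference of -0.25, with adjusted p = 0.0766, or 0.0445 with the replicate block. By day 3 Gmppb read 1143, 1053 and 1083 in zero DOX and 1399, 1396 and 1273 in high DOX, against 935, 922 and 925 in WT, so that KO stood above WT at either dose (0.54, SE 0.075, adjusted p = 3.35e-06 for high DOX). Pmm2 had 871, 987 and 879.7 in KO zero DOX and 841, 845 and 786 in high DOX, against 723, 759 and 736 in WT at day 3. It was the member of this group that did not pass between high and zero DOX (-0.14, adjusted p = 0.0582, or 0.0398 with the replicate block).

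Of the 6 genes for dolichol-linked donors, 4 were higher and 1 lower in high than in zero DOX at day 3. Alg5, which makes dolichol-linked glucose, read 1079.7, 1121 and 1155 in zero DOX, 1530.2, 1612 and 1549.9 in low DOX and 1764, 1802 and 1624 in high DOX, against 1362, 1418 and 1313 in WT. Zero DOX lay below WT and high DOX above it without overlap, and low against zero DOX gave 0.48, SE 0.052, adjusted p = 2.04e-07. At day 1 Alg5 lay between 1049.7 and 1150.5 in all KO cultures and between 1053 and 1106 in WT, with overlapping groups.

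Dpm1 is the catalytic subunit of the enzyme that makes dolichol-linked mannose, and Dpm2 and Dpm3 hold it in the membrane. The 3 subunits did not share a pattern. Dpm3 read 552, 589 and 621 in zero DOX, 630.2, 710.0 and 697 in low DOX and 792, 763 and 804 in high DOX at day 3, against 770.2, 809 and 769 in WT. High DOX overlapped WT, whereas zero DOX lay below it (-0.41, SE 0.061, adjusted p = 1.37e-05). Dpm2 went the other way, with 1617, 1702 and 1727 in zero DOX, 1377, 1499 and 1531 in low DOX and 1329.6, 1407 and 1395 in high DOX, against 1358, 1441 and 1448 in WT. It is 1 of the 2 members lower in high than in zero DOX (log2 difference -0.29). Dpm1 spanned 2403 to 3101 over the KO cultures of day 3 and 2734 to 2831 in WT, with a difference of 0.20 between high and zero DOX.

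Dolk, the kinase that makes dolichol phosphate, read 442, 428 and 456 in KO zero DOX at day 1, against 506, 542 and 540.1 in WT. All KO values lay below WT (-0.25, SE 0.054, adjusted p = 0.000613, with a difference of -0.39 after centring). WT had 343, 312 and 338 at day 0 and 396, 408 and 354 at day 3, all below its values of day 1. Mpdu1, needed for the use of dolichol-linked mannose and glucose, was the donor gene that did not pass between high and zero DOX, with 1076, 1094 and 1104 in high DOX and 1094, 1131 and 1141 in zero DOX.

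All 5 genes of cytosolic assembly were higher in high than in zero DOX at day 3, and all 5 were lower at day 3 than at day 1 in KO zero DOX. Alg2, which adds the second and the third mannose, had the largest difference of all 39 members between high and zero DOX. It read 247, 215 and 244 in zero DOX, 483, 448 and 382 in low DOX and 641, 632 and 589 in high DOX, against 293, 307 and 333 in WT. The 4 groups did not overlap, and WT lay between zero and low DOX. The mean was 621 ± 28.1 in high DOX and 235 ± 17.3 in zero DOX (SD, n = 3 each), a 2.54-fold difference on the scale with 16 added (1.34, SE 0.080, adjusted p = 2.12e-12).

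At day 1 the same gene showed no such spread. Alg2 read 461, 439 and 425 in zero DOX, 449, 457 and 491 in low DOX and 457, 498 and 481 in high DOX, against 440.2, 441 and 389 in WT, with neighbouring groups overlapping. From there it was lower at day 3 in KO zero DOX (-0.87, SE 0.080, adjusted p = 2.63e-09) and in WT (log2 difference -0.43). KO high DOX at day 3 lay above every value of day 1, and KO high DOX against WT at day 3 gave 0.96, SE 0.080, adjusted p = 1.66e-09.

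Dpagt1, the enzyme of the committed first step and the target of tunicamycin, read 539, 513 and 500.2 in zero DOX, 727, 691 and 687 in low DOX and 861, 781 and 769 in high DOX, against 615, 591 and 579.9 in WT at day 3. Each dose lay above the one beneath it, and zero DOX lay below WT. Alg14, the membrane anchor of the enzyme that adds the following sugar, read 370.4, 376 and 385 in zero DOX, 436, 444 and 435 in low DOX and 516, 499.8 and 489.6 in high DOX, against 449, 439 and 439 in WT. Alg11, which adds the last mannoses on this face, read 547, 528 and 545 in zero DOX, 692, 656 and 573 in low DOX and 768, 779 and 713 in high DOX, against 559, 595 and 580.4 in WT. In both genes the doses kept their order without overlap. Alg1, which adds the first mannose, had the smallest difference of the 5 between high and zero DOX (0.19), spanning 663 to 804 over KO cultures at day 3 and 614 to 678 in WT.

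**Figure D3:**
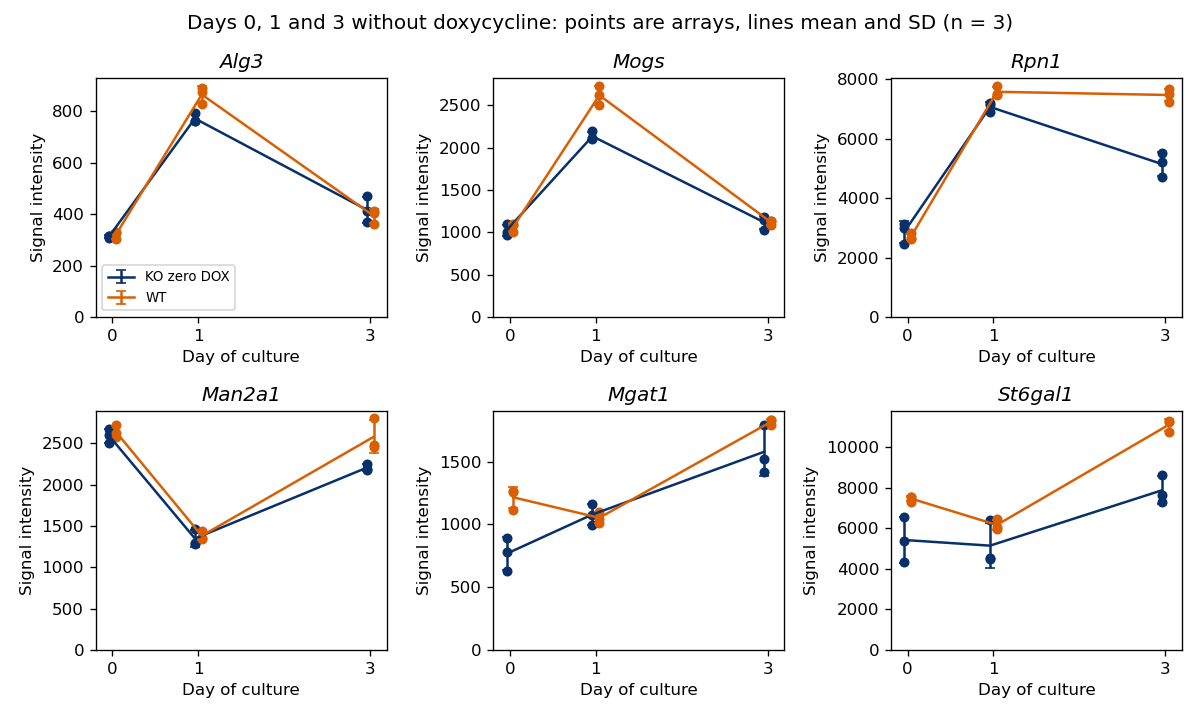
Intensity on each array of 6 members at days 0, 1 and 3 in KO zero DOX and WT, with lines through the means and bars for the SD (n = 3). Alg3 and Mogs peak at day 1 in both genotypes. Rpn1 at day 3 stays near its day 1 level in WT and lies below it in KO, though above day 0 in both. The Golgi genes Man2a1, Mgat1 and St6gal1 are highest at day 3 among the cultured WT cells.

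The genes of lumenal assembly had their largest movements with time and smaller ones with DOX. All 5 were higher at day 1 than at day 0 in WT (median 1.14), and 3 of 5 were higher in high than in zero DOX at day 3. None of the 5 passed between high and low DOX. Alg3, the first lumenal mannosyltransferase, read 315, 315 and 307 at day 0, 760.0, 793 and 759 at day 1 and 468, 412 and 369 at day 3 in KO zero DOX. In WT it had 327, 331 and 301 at day 0, 889, 827 and 876 at day 1 and 412, 404 and 363 at day 3. In both the values of day 1 lay far above the others. In WT day 1 was higher than day 0 (1.39, SE 0.084, adjusted p = 2.18e-13), and day 3 was lower than day 1 (-1.11, SE 0.084, adjusted p = 5.97e-11).

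Alg9, which adds further mannoses, was lower at day 3 than at day 1 in WT by more than in KO. It read 1069, 968 and 947 in KO zero DOX at day 3, against 727, 762 and 835 in WT, and 1194, 1221 and 1262 in KO zero DOX at day 1, against 1335, 1416 and 1494 in WT. KO lay above WT at day 3 and below it at day 1, without overlap at either time. Its difference from WT at day 3, singled out after its values were seen, was 0.35, SE 0.065, adjusted p = 0.000139. The change over these days differed between genotypes by 0.56 (SE 0.091, adjusted p = 0.000184). Alg12 spanned 531 to 658 over KO cultures at day 3 and 527 to 601 in WT.

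Alg6 and Alg8 add the first and the second glucose. Alg6 read 206, 196 and 199 in zero DOX, 334, 294 and 243 in low DOX and 303, 329.9 and 291 in high DOX at day 3, against 262, 229 and 271 in WT. Low DOX overlapped high DOX and WT, high DOX lay above WT, and zero DOX lay below all of them (0.49, SE 0.10, adjusted p = 0.000606 for low against zero DOX). At day 0 the gene was near the filter, with 126, 141 and 115 in KO and 129.5, 118 and 130.3 in WT.

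Alg8 was the most variable member between replicates, with a residual SD of 0.322 on the log2 scale, against a median of 0.0752 over the members. It read 744, 414 and 758 in KO zero DOX at day 3, against 1063, 1007 and 1091 in WT. KO high DOX read 847, 507 and 834 at day 3. In these as in all 7 KO groups replicate 2 was the lowest, and WT replicates lay closer together. The KO zero DOX against WT difference (-0.76, SE 0.25, adjusted p = 0.019) was lost without KO zero DOX replicate 2, without WT replicate 1, and with sex in the fit, the difference being -0.48 and the adjusted p 0.162 without the KO array.

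**Figure D4:**
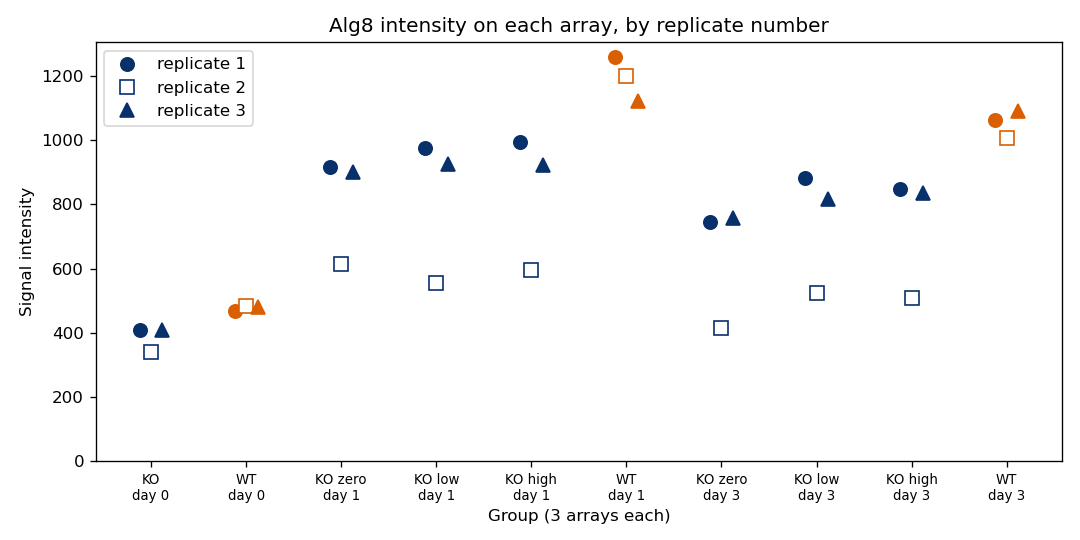
Alg8 intensity on each of the 30 arrays by group and replicate number (KO in blue, WT in orange). The open squares of replicate 2 lie below both other replicates in all 7 KO groups, and the WT replicates lie close together.

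Most oligosaccharyltransferase genes followed DOX at day 3. Of 7 genes 6 were higher and 1 lower in high than in zero DOX (median 0.89), 6 were lower and none higher in KO zero DOX than in WT, and 6 were higher and 1 lower in KO high DOX than in WT. Rpn2, a structural subunit, read 2066, 1931 and 1987 in zero DOX, 3757, 3477 and 3332 in low DOX and 4788, 4448 and 4156 in high DOX, against 3175, 2974 and 2897 in WT. The 4 groups did not overlap, and WT lay between zero and low DOX. The differences were 1.15, SE 0.068, adjusted p = 1.56e-12 for high against zero DOX and -0.59, SE 0.068, adjusted p = 3.54e-07 for KO zero DOX against WT.

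Rpn1, a subunit that presents substrates to the catalytic centre, read 5504, 4716 and 5206 in zero DOX, 9304, 8673 and 7765 in low DOX and 10862, 10414 and 10044 in high DOX at day 3, against 7656, 7233 and 7497 in WT. The order of the groups was that of Rpn2, with 1.02, SE 0.072, adjusted p = 4.22e-11 for high against zero DOX. The smaller step of high against low DOX (0.29, SE 0.072, adjusted p = 0.00897) was lost without high DOX replicate 1, without low DOX replicate 3, after centring and with only these groups in the fit. Ddost, another core subunit, read 3827, 3735 and 3833 in zero DOX, 6113, 6062 and 5534 in low DOX and 7680.0, 7399.9 and 6979.6 in high DOX, against 5255, 5194 and 5182 in WT. Its replicates were close, and both dose steps passed (0.63, SE 0.042, adjusted p = 5.77e-11 for low against zero and 0.32, SE 0.042, adjusted p = 1.67e-05 for high against low DOX).

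The complex exists in alternative forms with either of the catalytic subunits STT3A, which acts as chains enter the endoplasmic reticulum, and STT3B, which acts on sites that were skipped. By the probe sets used here their transcripts differed in opposite directions between high and zero DOX. Stt3a read 4109.7, 4152 and 3983 in zero DOX, 6771, 6092 and 5731 in low DOX and 7493, 7646 and 7551 in high DOX, against 5903, 5684 and 5469 in WT. High DOX lay above all other groups (0.89, SE 0.054, adjusted p = 2.96e-12 against zero DOX). Stt3b read 7385, 7979 and 7227 in zero DOX, 6472, 7120.0 and 6897 in low DOX and 6076, 6716 and 6849.7 in high DOX, against 9858, 9982 and 9660.1 in WT.

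WT exceeded every KO culture for Stt3b at day 3, and no dose closed the gap (-0.39, SE 0.061, adjusted p = 2.68e-05 for zero DOX and -0.59, SE 0.061, adjusted p = 4.86e-08 for high DOX against WT). Stt3b is the other member lower in high than in zero DOX (log2 difference -0.20). Its second probe set gave 0.04 in that comparison (adjusted p over probe sets 0.798), so it was called lower by 1 of its sets, while the second gave -0.81 for KO zero DOX and -0.78 for KO high DOX against WT. For Stt3a the other probe sets gave 0.60, 0.92 and 0.93 between high and zero DOX. The sets used for Stt3a, Rpn1 and Gmppa are of the kind whose probes may also match other transcripts.

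Dad1 and Ost4, the small subunits, differed by less. Dad1 read 3900.0, 4050.2 and 4157 in zero DOX, 5257, 5410.4 and 4786 in low DOX and 6239, 6034 and 5363 in high DOX, against 4242, 4116 and 4243 in WT. High and low DOX overlapped and lay above WT, which overlapped zero DOX. Ost4 read 5174, 5334 and 5364 in zero DOX, 6268, 6550.2 and 6301 in low DOX and 7329.5, 7416 and 7436 in high DOX, against 5692, 5794 and 5687 in WT. These groups did not overlap, and WT lay between zero and low DOX.

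**Figure D5:**
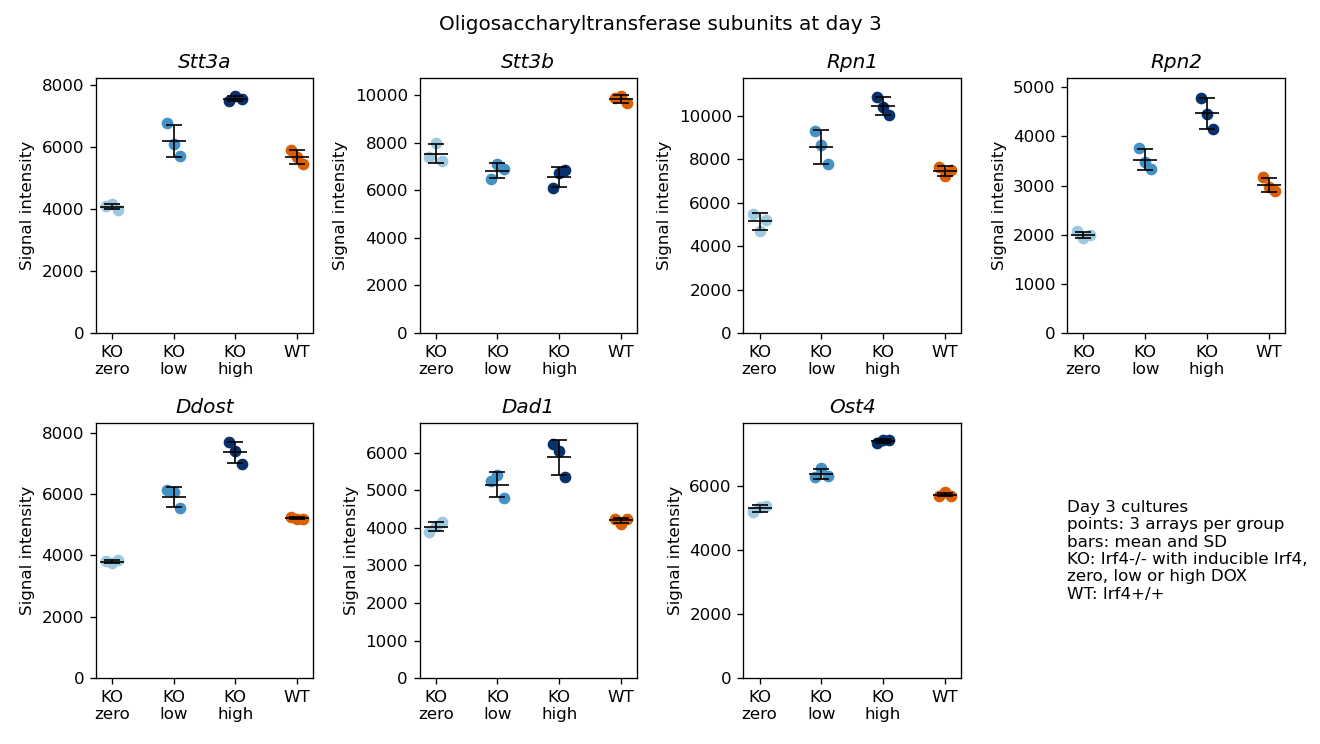
Intensity on each array of the 7 oligosaccharyltransferase genes at day 3, by DOX dose in KO and in WT, with mean and SD (n = 3). Stt3a, Rpn1, Rpn2, Ddost and Ost4 climb in non-overlapping steps from zero to high DOX and Dad1 climbs with overlap, while Stt3b is highest in WT and does not climb.

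The time course of Rpn1 differed between the genotypes. KO zero DOX read 2990.2, 3136 and 2440.4 at day 0, 7128, 6879.8 and 7178 at day 1 and 5504, 4716 and 5206 at day 3. In WT, Rpn1 read 2649, 2821 and 2637 at day 0, 7755, 7503 and 7454 at day 1 and 7656, 7233 and 7497 at day 3, with 1.48, SE 0.072, adjusted p = 3.27e-15 for day 1 against day 0. The genotypes overlapped at day 0 and stood apart at day 3, where KO lay below its own values of day 1. Rpn1 and Stt3a each had a faint further probe set, with a mean log2 of 7.22 and 7.75, that was called in the other direction between days 1 and 0 and between days 3 and 0 in WT. Pmm2 and Man1a2, called higher at day 1 than at day 0 in WT, each had a further set called lower there. These gave -0.25 for Pmm2 (mean log2 9.29, adjusted p over probe sets 0.0296) and -0.31 for Man1a2 (mean log2 7.66, adjusted p over probe sets 0.0201).

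Of the 4 trimming genes, Mogs, Ganab and Man1a2 were higher in high than in zero DOX at day 3, and Man1a did not pass. Mogs, the glucosidase that removes the outermost glucose, read 1177, 1149 and 1029 in zero DOX, 2119, 1915 and 1693 in low DOX and 1907, 1909 and 1756 in high DOX at day 3, against 1087, 1132 and 1136 in WT. Low and high DOX overlapped each other and lay above zero DOX and WT, which overlapped too. The difference was 0.73, SE 0.066, adjusted p = 2.9e-09 for high and 0.76, SE 0.066, adjusted p = 5.76e-09 for low against zero DOX.

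At day 1 Mogs was the member that passed the test with DOX. It read 2111, 2192 and 2104 in zero DOX, 2189.8, 2101 and 2149.5 in low DOX and 2705, 2606 and 2538 in high DOX, against 2725, 2628 and 2505 in WT. High DOX overlapped WT, and zero and low DOX overlapped below them (0.29, SE 0.066, adjusted p = 0.016 for high against zero DOX). The call was lost after centring, with only these groups in the fit, and without high DOX replicate 1, zero DOX replicate 1 or zero DOX replicate 3, with adjusted p up to 0.111. At day 0 WT read 1098, 1092 and 1009.9, so that Mogs in WT was highest at day 1 (-1.22, SE 0.066, adjusted p = 1.75e-13 for day 3 against day 1).

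Ganab, the catalytic subunit of the following glucosidase, read 2108, 2159 and 2301 in zero DOX, 2829, 2689 and 2887 in low DOX and 3053, 2990.4 and 3274 in high DOX, against 2499, 2545 and 2496 in WT at day 3. The groups did not overlap, and WT lay between zero and low DOX. Man1a, a Golgi mannosidase, read 5839, 5906 and 6071 in zero DOX, 5766, 5491 and 5932 in low DOX and 5777, 5813 and 6525 in high DOX, against 6817, 6942 and 7182 in WT. The doses overlapped and all KO values lay below WT, as they did at day 0, with 4631, 4622 and 5718 in KO and 6698, 6547 and 6878 in WT (-0.43, SE 0.068, adjusted p = 4.31e-05). Man1a2, a related mannosidase, read 640.0, 574 and 572 in zero DOX, 753, 669 and 637 in low DOX and 799, 758 and 669 in high DOX, against 684, 670.4 and 628 in WT. High DOX lay above zero DOX without overlap (log2 difference 0.31), and zero and high DOX each overlapped WT.

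The 5 Golgi genes that build branches were each higher at day 3 than at day 1 in WT, and 4 of 5 were so in KO zero DOX. Mgat1, which starts hybrid and complex glycans, read 1419.9, 1522 and 1796 in zero DOX, 2117, 2126 and 2108 in low DOX and 2611, 2543 and 2555 in high DOX at day 3, against 1794, 1828 and 1833 in WT. Low and high DOX formed steps above WT, and zero DOX reached into WT with 1 array. Man2a1, the mannosidase that acts next, read 2185, 2182 and 2255 in zero DOX, 2882, 2967 and 2792 in low DOX and 3704, 3738 and 3872 in high DOX, against 2479, 2452 and 2810.3 in WT. Zero DOX lay below WT and high DOX above it without overlap, with 0.77, SE 0.054, adjusted p = 4.34e-11 for high against zero DOX and 0.39, SE 0.054, adjusted p = 3.38e-05 for high against low DOX.

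Man2a1 was lowest at day 1. KO zero DOX had 2510.2, 2678 and 2597 at day 0 and 1289, 1294 and 1468 at day 1. WT had 2578, 2722 and 2626 at day 0 and 1344, 1357 and 1447 at day 1. The difference of day 3 from day 1 was 0.70, SE 0.054, adjusted p = 1.44e-10 in KO zero DOX and 0.89, SE 0.054, adjusted p = 1.38e-12 in WT.

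Mgat2, which starts the other branch, read 1224, 1189 and 1080.2 at day 0, 2774, 2630.0 and 2645 at day 1 and 3000.4, 2881 and 2911 at day 3 in KO zero DOX. WT had 1544, 1475 and 1416 at day 0, 3144, 3462 and 3517 at day 1 and 4227, 4148 and 4158 at day 3, the largest difference of any member between days 3 and 0 in WT (1.49, SE 0.054, adjusted p = 4.95e-17). KO zero DOX lay below WT on every array at all 3 days (-0.51, SE 0.054, adjusted p = 1.19e-07 at day 3). High DOX read 3954, 3827 and 3999.5 and lay below WT on every array as well, although the difference did not pass (-0.09, adjusted p = 0.201).

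B4galt1, the main galactosyltransferase, was higher in KO than in WT at rest, with 3247, 3256 and 2864 in KO and 2191, 2163 and 2412 in WT at day 0 (0.47, SE 0.058, adjusted p = 2.46e-06). At day 3 it read 4456, 4146 and 4523 in zero DOX, 6251, 5562 and 5757 in low DOX and 6745, 6418 and 6634 in high DOX, against 4501, 4532 and 4455 in WT. Zero DOX overlapped WT and both other doses lay above it (0.55, SE 0.058, adjusted p = 5.7e-08 for high DOX against WT).

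St6gal1 adds the sialic acid cap that the B cell receptor CD22 binds. It read 7664, 7306 and 8648 in zero DOX, 8751, 8273 and 8865 in low DOX and 9043, 9425 and 9629 in high DOX at day 3, against 10768, 11236 and 11304 in WT. All KO values lay below WT, and of the doses tested against it zero DOX passed (-0.50, SE 0.14, adjusted p = 0.0092) and high DOX did not (-0.25, adjusted p = 0.189). At day 0 KO read 5359, 4342 and 6579 and WT 7537, 7312 and 7555 (-0.48, SE 0.14, adjusted p = 0.0137), a call lost without KO replicate 2 and with only these groups in the fit. With sex in the fit the difference of KO zero DOX from WT was -0.29 at day 3 and -0.27 at day 0, and both passed. Replicate 3, the female mouse among the KO replicates, was the highest in 7 of 7 KO groups. In high against zero DOX the difference was 0.25 (adjusted p = 0.157, or 0.0469 with the replicate block).

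Of 47 other genes of the same pathway chosen by function, 42 were tested, and 31 were higher and 6 lower in high than in zero DOX at day 3 (median 0.38), where 48.6% of all genes were called. The largest were Edem2, which helps to send misfolded glycoproteins to degradation (1.62, SE 0.093, adjusted p = 1.04e-12), Man1b1, a mannosidase of the same route (1.36, SE 0.066, adjusted p = 6.12e-14), and Gne, the key enzyme of sialic acid synthesis (1.36, SE 0.092, adjusted p = 2.15e-11, with a difference of 0.79 by the mean of its probe sets). Among further transferase subunits Ostc, which belongs to the STT3A form, was higher (0.90, SE 0.043, adjusted p = 5.38e-14). Mgat5, which adds a further branch, was lower (-1.20, SE 0.095, adjusted p = 3.27e-10). In KO zero DOX against WT at day 3, 19 were lower and 6 higher, with 34.9% of all genes called. Among the lower were St3gal6 (-1.38, SE 0.27, adjusted p = 0.000294) and Gne (-0.94, SE 0.092, adjusted p = 3.56e-08), and among the higher Mgat4a, which adds another branch (0.67, SE 0.073, adjusted p = 2.01e-07). By the mean of each gene's probe sets the difference was -0.61 for Gne and 0.32 for Mgat4a, and both kept their call. In high against zero DOX at day 1, 4 were higher and none lower, with 2.75% of all genes called.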

How the data were processed

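Expression was measured on 30 Affymetrix mouse expression arrays, 3 for each of 10 groups. The values are linear intensities that the authors normalized with D-Chip from perfect-match probes alone, per the series text, and MAS5 is named in the submitters' processing notes without a role. Array number limits the precision. The fit treats all arrays as independent, so its p-values measure the spread between arrays within groups. It ignores that same-numbered KO arrays deviated together, which the replicate block takes up.

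Of 45101 probe sets, 64 were controls. The platform annotation gave 1 gene symbol to 34945, several to 932 and none to 9160. Symbols were updated through Entrez to RefSeq GRCm38.p6 (34741 matched, 204 kept). Genes were kept with at least 3 arrays above the median intensity, and values were analysed as log2(intensity + 16). All 30 arrays were fitted together in limma 3.58.1 (R 4.3.3) with a mean per group, which leaves 20 residual degrees of freedom, and adjusted p-values are by Benjamini-Hochberg over 12183 genes with a threshold of 0.05. Folds are on the log2(intensity + 16) scale and understate changes of dim genes. The adjusted p-values printed for further probe sets are over probe sets. On data simulated for high against zero DOX at day 3 with 200 of 12183 genes changed, 82% of changes of 0.5 log2 and 97% of changes of 1 were recovered. Noise was drawn independently for each array. In the real comparison 48.6% of genes were called and same-numbered KO arrays deviated together, so recovery there may differ.

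The members and lists were chosen with earlier results of these data known. All 39 members are named with their levels. Differences with SE and adjusted p are given for at most the 10 called members with the largest difference in a comparison, and of the other pathway genes for at most 6. Values of members outside that rule are given where a count or an array singled them out.

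Same-numbered KO arrays deviated together in the 5 comparisons within KO (correlations of 0.386 to 0.799 in every pair), so the numbers pair KO cultures. In comparisons with WT they do not. The alternatives were other pseudocounts (1, 64), other filters, centring on the median, quantile normalization, the mean of a gene's probe sets, a replicate block, sex as a term, only the groups compared, an intensity trend, leaving out each array, and leaving out both day 1 arrays that go against their labels. The block within genotype was added after seeing the data.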

Additional observations from a re-analysis of the deposited data

Results flagged for a closer look

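The change between days 1 and 3 differed between KO zero DOX and WT in 14 members by the interaction term of the limma fit, which is the change in KO minus the change in WT on the log2 scale. Over all genes tested 29.2% were called (9% higher, 20.2% lower), and the members' count lies not far above that share. In 4 members the term was positive. Alg9 gave 0.56 (SE 0.091, adjusted p = 0.000184), with a change of -0.30 in KO and -0.86 in WT. For Pmm2 it was 0.37 (SE 0.087, adjusted p = 0.00346), with -0.03 in KO and -0.40 in WT. Uap1 had 0.29 (SE 0.096, adjusted p = 0.0248), with -0.05 in KO and -0.35 in WT. The term for Mogs was 0.29 (SE 0.093, adjusted p = 0.0226), with -0.93 in KO and -1.22 in WT. In each of these the fall over the 2 days was smaller in KO.

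In the other 10 members it was negative. Among transferase subunits Rpn1 had -0.44 (SE 0.10, adjusted p = 0.00324), Ddost -0.34 (SE 0.059, adjusted p = 0.000267) and Stt3a -0.29 (SE 0.076, adjusted p = 0.00697). Rpn1 changed by -0.46 in KO and -0.02 in WT, Ddost by -0.31 in KO and 0.03 in WT, and Stt3a by -0.21 in KO and 0.08 in WT. Alg2 had -0.44 (SE 0.11, adjusted p = 0.0063), with a change of -0.87 in KO and -0.43 in WT. Of the GDP-mannose subunits, Gmppa had -0.37 (SE 0.094, adjusted p = 0.0054) and Gmppb -0.29 (SE 0.11, adjusted p = 0.0457). Gmppa changed by -0.15 in KO and 0.22 in WT, and Gmppb by -0.84 in KO and -0.55 in WT.

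Among the genes for dolichol-linked donors, Dpm3 had -0.36 (SE 0.086, adjusted p = 0.00356), Alg5 -0.29 (SE 0.074, adjusted p = 0.00629) and Mpdu1 -0.27 (SE 0.062, adjusted p = 0.00277). Each changed by under 0.1 in KO, while in WT Dpm3 rose by 0.44, Alg5 by 0.33 and Mpdu1 by 0.33. B4galt1, the Golgi galactosyltransferase, had -0.28 (SE 0.082, adjusted p = 0.0144), with a rise of 0.39 in KO and 0.67 in WT. All 10 negative terms lost their call after centring, and the call for Stt3a was lost also by the mean of its probe sets (-0.04, adjusted p = 0.767). The call for Mogs was lost in 5 settings, which were quantile normalization and leaving out KO zero DOX day 3 replicate 1 or 2, WT day 1 replicate 1 or WT day 3 replicate 1 (adjusted p up to 0.0681). That for Uap1 was lost in 6, which were quantile normalization, the mean of its probe sets (0.12), leaving out KO zero DOX day 1 replicate 2 alone or both day 1 arrays that go against their labels, and leaving out WT day 3 replicate 1 or 2 (adjusted p up to 0.242). Alg9 and Pmm2 kept their calls in the 25 settings run. In WT 8 of 9 plasma markers also rose over these days, and their part was not tested.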

How the results depend on the processing

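Of 197 named results 166 kept direction and call under every alternative run, and none reversed. Counts of called members that moved by more than 1.5 times were these. KO against WT at day 0 had 14 called members, and 5 with only these groups in the fit (3832 and 1332 over all genes). KO zero DOX against WT at day 1 had 18, and 29 after centring (6048 and 6322 over all genes). High against low DOX at day 3 had 16, and 7 after centring, 7 with only these groups, and 8 to 16 when each array was left out. High against zero DOX at day 1 had 1, and 0 after centring, 0 with only these groups, 2 with the replicate block, 3 with sex as a term, 3 with the replicate block within genotype, and 0 to 1 when each array was left out. For high against zero DOX at day 1, calls over all genes were 335 in the main fit, 190 after centring and 3 with only these groups. The interaction had 14 called members, and 7 after centring (3557 and 3775 over all genes). The replicate block ended no member's call and moved no other count by more than 1.5 times. Within KO it added calls, among them Dolk, Dpagt1, Pgm3, Mgat1 and B4galt1 in high against low DOX. After quantile normalization the interaction split was 2 higher and 13 lower. The causes were not tested.

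Each group has 3 arrays, 2 arrays of day 1 go against their labels, sex follows replicate number in KO, and all WT arrays are female. Levels of different probe sets cannot be set against each other.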

Other observations

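Of the other genes of the pathway, 42 were tested. In WT 21 were higher and 11 lower at day 1 than at day 0, with 81.5% of all genes called, and 16 higher and 7 lower at day 3 than at day 1, with 69.4% called. Low against zero DOX at day 3 gave 24 higher and 5 lower (35.8% of all genes called), and high against low DOX gave 16 higher and 2 lower (12.8%). KO high DOX against WT at day 3 gave 21 higher and 4 lower (41.1%).

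Edem3, a partner of Edem2 in the disposal of misfolded glycoproteins, was higher in high than in zero DOX at day 3 (0.96, SE 0.085, adjusted p = 2.27e-09). In KO zero DOX against WT at day 3 the genes called lower included Man2a2, a Golgi mannosidase related to Man2a1 (-0.86, SE 0.095, adjusted p = 2.44e-07, with a difference of -0.42 by the mean of its probe sets), Man1b1 (-0.64, SE 0.066, adjusted p = 7.3e-08) and Edem2 (-0.62, SE 0.093, adjusted p = 1.33e-05). These are values of limma's fit, and no explanation was tested.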
